A study of Homo sapiens with 38 samples.

Results

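The 10 genes described here, VEGFA, CA9, EGLN1, EGLN3, ADM, BNIP3, PDK1, NDRG1, ANKRD37 and SLC2A1, are known targets of the hypoxia-inducible factors (HIFs). They were chosen by name, as genes that rise when cells lack oxygen, with earlier results of these data known. All 10 were found among the 50652 gene symbols of the BE2C count tables and the 50778 of the tables from the other lines. The series is RNA-seq of established human neuroblastoma cell lines, from total RNA read as counts of read pairs per gene. BE2C cells, a MYCN-amplified line, received GSK-J4 at 2.5 µM for 0 h, 24 h or 48 h (2 libraries at each time), or were transfected for 72 h with a non-targeting siRNA (siCtrl, 2 libraries) or with 1 of 3 siRNAs labelled as directed at KDM6B (N1, N2 and N33, 1 library each). CHLA15 and CHLA20 cells received palbociclib, a CDK4/6 inhibitor, at 300 nM and NB1643 and NB1691 cells at 3 µM, in each line for 72 h beside untreated cells (2 libraries per line and condition). The 38 deposited samples make 27 libraries, since each BE2C library was deposited as 2 files. The labels name no vehicle-treated BE2C cells at 24 h or 48 h, so GSK-J4 and time in culture cannot be told apart, and palbociclib dose cannot be told apart from cell line.

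HIFs are made of an oxygen-labile alpha subunit (HIF1A, EPAS1 or HIF3A) and a stable beta subunit (ARNT or ARNT2). In oxygen, the prolyl hydroxylases EGLN1, EGLN2 and EGLN3 mark the alpha subunit for the VHL ubiquitin ligase, and HIF1AN hydroxylates an asparagine, which keeps coactivators from binding. These enzymes use iron and 2-oxoglutarate, as do the histone demethylases KDM6A and KDM6B. GSK-J4 is the cell-permeable ester of GSK-J1, a KDM6 inhibitor that occupies the 2-oxoglutarate pocket, and the question addressed by the 10 genes is whether their transcripts change with GSK-J4 as they do in hypoxia, and whether they also change in the libraries labelled siKDM6B. No hypoxic library was analysed here, and HIF protein was not measured.

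Libraries held 36186567 to 93011010 counts on genes, so that 3 counts, taken as the floor of detection, correspond to at most 0.0829 CPM of the unscaled total. All levels below are CPM, a gene's counts relative to its library's total after TMM scaling. The BE2C libraries carried the adrenergic neuroblastoma markers PHOX2A, HAND2, GATA3, ISL1, TH and DBH at a summed 1055 to 1079.7 CPM at 0 h, while the markers of other cells summed to 199 to 209.8 CPM, of which VIM, a mesenchymal filament protein, was at 170.4 and 176 CPM, and the mesenchymal marker PRRX1, the blood marker PTPRC and the liver marker ALB lay at 3 counts or fewer. NB1691 stood apart: in its untreated libraries the same 6 neuroblastoma markers summed to 199 to 212 CPM, against 1552 to 2225 CPM in untreated CHLA15, CHLA20 and NB1643, and the 8 markers of other cells, led by FN1 at 61798 and 61799.9 CPM, summed to 78711 to 78931 CPM against 399 to 1323 CPM. TH, the defining enzyme of catecholamine synthesis, was at 0.688 and 0.752 CPM there, from 52 and 47 counts. Results for NB1691 are therefore given beside those of the other lines.

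HIFs bind DNA at short sites with the core ACGTG or GCGTG. Promoter windows from 250 bases before to 50 bases after the start site were present in the RefSeq table (GRCh38.p14) for 8 of the 10 genes. VEGFA and NDRG1 were not matched. Searched on both strands, either core was found in 7 of the 8 genes, against 48.4% of 35116 promoter windows of the same length. ACGTG was found in 5 of the 8, against 21.4%, and GCGTG in 3 of the 8, against 36.5%. These percentages count windows, whereas the members are counted per gene, and a gene can have more than 1 window, as PDK1 does. Counted per gene, 7503 of the 10763 tested genes with a window held either core. The first core was in 3444 of them and the second in 6238. The window shares therefore cannot show that the cores are enriched in the 8 genes, and enrichment was not tested. ACGTG also lies inside the E-box CACGTG, which other factors bind (7.26% of windows), and this was the case for 1 of the 2 ANKRD37 sites and for the ACGTG of BNIP3, which also held 4 GCGTG cores. SLC2A1 held 1 GCGTG, centred 27 bases after its start. All 10 transcripts rose under GSK-J4, whether or not a core was found in the window. Sites of 6 genes are shown as examples, in the orientation in which the core reads 5′ to 3′, with the core in capitals.
CA9, chr9:35673901-35673923, minus strand: acgggctgtACGTGcattggaaa
EGLN1, chr1:231422287-231422309, minus strand: ccgtggtgtACGTGcagagcgcg
PDK1, chr2:172556073-172556095, minus strand: ccgagtggtACGTGagggacgtg
PDK1, chr2:172556064-172556086, minus strand: acgtgagggACGTGgcgggcagc
ANKRD37, chr4:185396689-185396711, plus strand: tgtttgtgtACGTGcggccgtgg
ANKRD37, chr4:185396671-185396693, plus strand: ccgggctccACGTGccagtgttt
BNIP3, chr10:131982043-131982065, minus strand: acgcgccgcACGTGccacacgca
ADM, chr11:10304963-10304985, plus strand: caggagcgcGCGTGgctgaggaa
In CA9, EGLN1 and PDK1 the core was centred at positions -16, -11 and -6 from the annotated start, and the overlapping PDK1 sites share bases. The first line of CA9, EGLN1, PDK1 and ANKRD37 has a T before the core, a longer form noticed after the sequences were seen. It occurs in 3.24% of windows. Of the 480 tested genes with this longer form, 44.4% were called higher after 48 h of GSK-J4, against 37.6% of all 10763 tested genes with a window in the table. These 480 include the members in which the form was noticed. For the cores searched first there was no such excess, with 36.7% for ACGTG, 37.5% for GCGTG and 37.4% for either. With the E-box CACGTG the share was 31.3%. EGLN3 had neither core in its window, which says only that these letters are not within it.

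**Figure D1:**
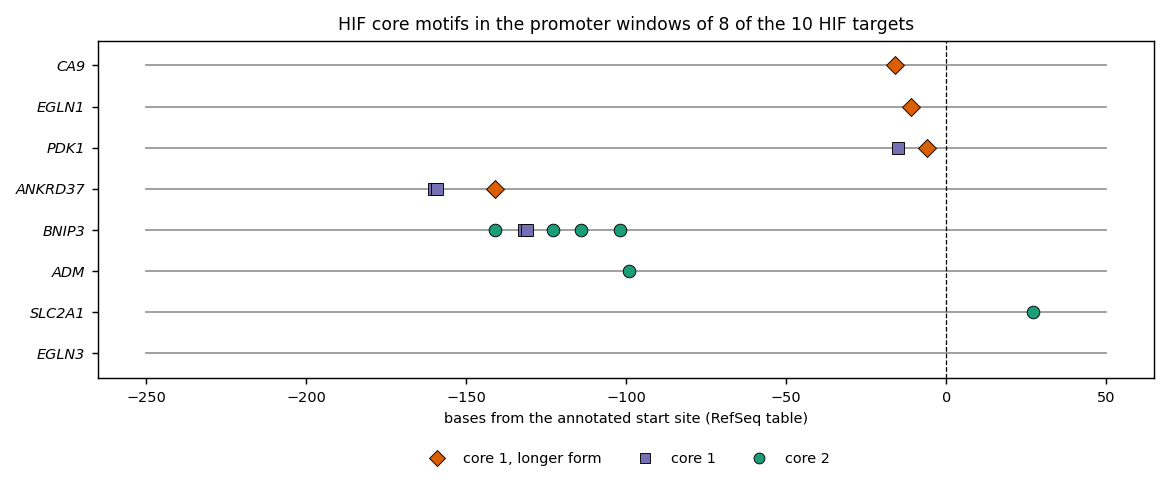
Positions of the HIF core motifs (horizontal axis, bases from the annotated start site, marked by a dashed line) in the promoter windows of 8 HIF targets, with core 1 being ACGTG, its longer form having a T before it, and core 2 being GCGTG. The longer form lay close to the start in CA9, EGLN1 and PDK1 and further upstream in ANKRD37, and EGLN3 had no match.

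All 10 genes rose under GSK-J4, and all rose further between 24 h and 48 h. By edgeR's quasi-likelihood test, 10 of 10 were called higher at 24 h, where 55.3% of the 17734 genes tested were called (27.3% higher and 28% lower). At 48 h 10 of 10 were called higher, where 71.5% were called (37.1% higher and 34.4% lower). Between 24 h and 48 h 10 of 10 were again higher, where 53.9% were called (25.9% higher and 28% lower). The median log2 fold change of the 10 was 1.73 at 24 h and 2.96 at 48 h, while the median of all tested genes was 0.01 and 0.05. In each of the 10 the libraries of 0 h, 24 h and 48 h formed separate, non-overlapping levels. How many of all genes tested did so was not counted, so this does not set the 10 apart. In bulk RNA, more cells with a transcript and more of it per cell cannot be told apart. The common coefficient of variation between libraries of a time was 2.19%, and whether these were separate cultures is not stated, so the p-values measure the spread between these libraries.

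**Figure D2:**
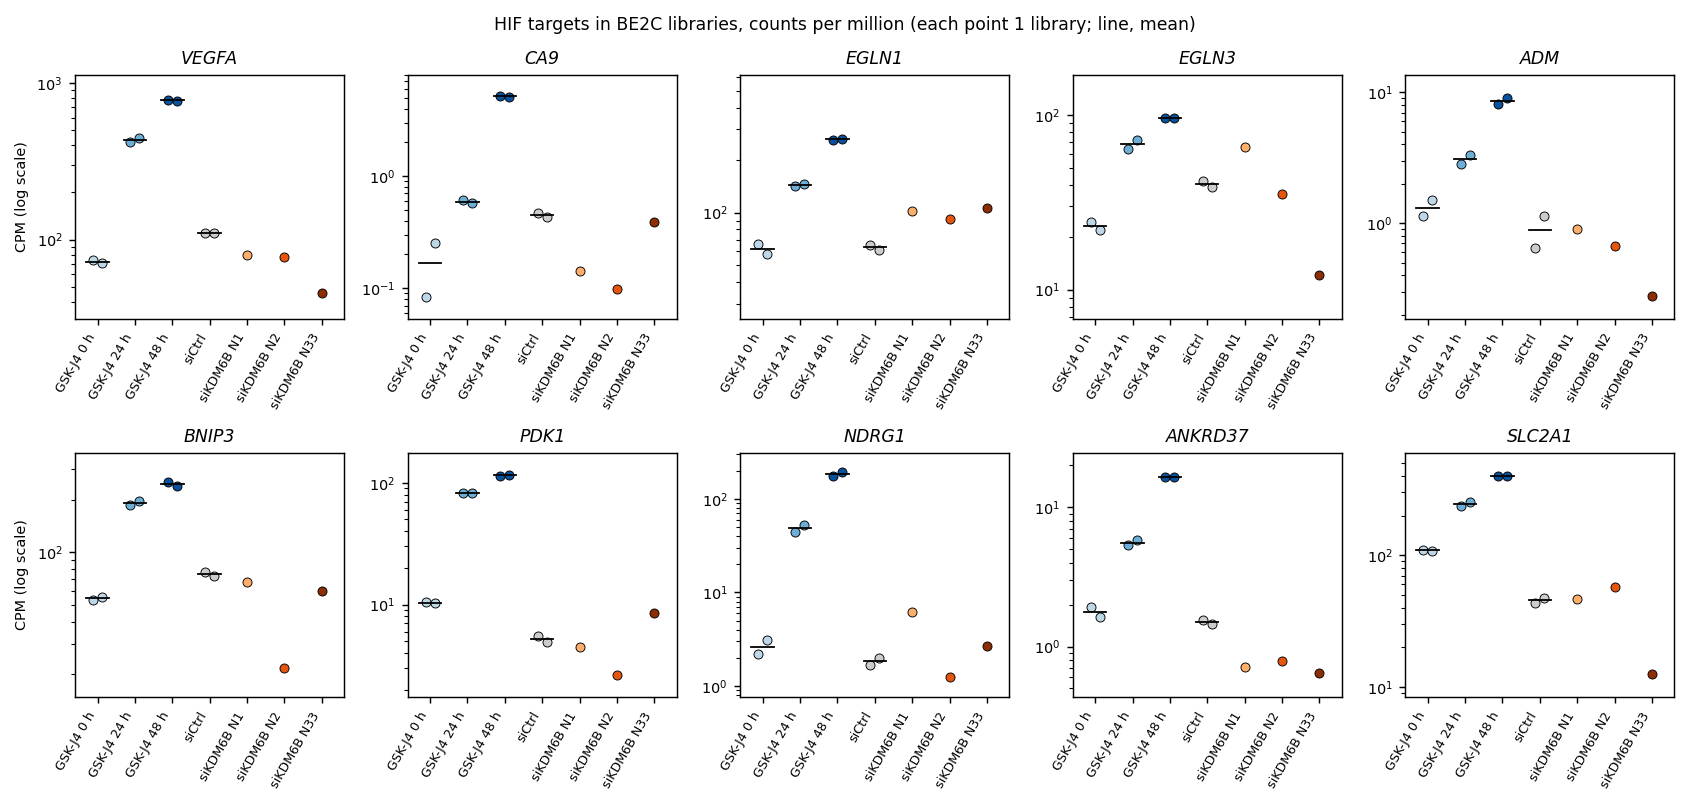
Level of each HIF target in the 11 BE2C libraries (vertical axes, CPM on a log scale, with a range of its own in each panel); each point is 1 library and each line the mean of its group. All 10 genes climbed from 0 h to 24 h to 48 h of GSK-J4, whereas the libraries labelled siKDM6B lay above or below siCtrl depending on the gene and the siRNA.

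Among the secreted signals, VEGFA, the main growth factor for blood vessels, stood at 73.7 and 71.1 CPM at 0 h, 420.2 and 444 CPM at 24 h and 779 and 771 CPM at 48 h. Its fold change was 5.97 at 24 h (95% interval 5.70 to 6.26) and 10.7 at 48 h (10.2 to 11.2, edgeR adjusted p = 4.7e-50). VEGFA thereby became the member with the highest level per length, at 215 CPM per kb of its canonical transcript, from 20.1 at 0 h. ADM, the vasodilator peptide adrenomedullin, was scarce at 1.13 and 1.49 CPM at 0 h, 2.82 and 3.34 CPM at 24 h and 8.14 and 9.15 CPM at 48 h. It rose 2.35-fold at 24 h (1.83 to 3.02) and 6.56-fold at 48 h (5.34 to 8.05, edgeR adjusted p = 2.7e-21). On the log2 scale ADM rose more after 24 h (1.48) than before it (1.23), while VEGFA rose by 2.58 before and 0.84 after.

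The 2 prolyl hydroxylases, which are themselves induced by HIF and act back on it, rose less. EGLN1, the main oxygen sensor of most cells, was measured at 66.1 and 57.9 CPM at 0 h, 143 and 147 CPM at 24 h and 262 and 263 CPM at 48 h. Its fold change was 2.33 at 24 h (2.21 to 2.46) and 4.23 at 48 h (4.01 to 4.46, edgeR adjusted p = 6.1e-40). EGLN3, the isoform most responsive to hypoxia, went through 24.5 and 22.0 CPM at 0 h, 64.3 and 71.8 CPM at 24 h and 96.8 and 96.6 CPM at 48 h. It was 2.92-fold higher at 24 h (2.72 to 3.14) and 4.15-fold higher at 48 h (3.88 to 4.45, edgeR adjusted p = 4.1e-35). EGLN2, the isoform not known as a HIF target, did not pass the test at either time, with log2 fold changes of -0.13 (95% interval -0.33 to 0.06) and -0.09 (-0.28 to 0.09). In the GENCODE annotation used here for lengths, a gene without a symbol on the same strand covers 55.8% of the exonic bases of EGLN1. Whether the annotation used for counting held that gene is not known, and its effect on the EGLN1 counts was not tested.

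The metabolic members act on glucose uptake, pyruvate entry into mitochondria and acid export. SLC2A1, the glucose transporter GLUT1, was abundant from the start, at 109.6 and 108 CPM at 0 h, 237 and 256 CPM at 24 h and 397 and 401 CPM at 48 h. Its 3.67-fold rise at 48 h (3.51 to 3.84, edgeR adjusted p = 1.5e-40) was the smallest of the 10, and 1052 of the 17734 genes had a larger log2 fold change. PDK1, the kinase that inactivates pyruvate dehydrogenase, made most of its change early, at 10.4 and 10.4 CPM at 0 h, 82.8 and 83.0 CPM at 24 h and 114 and 116 CPM at 48 h. That is 7.97-fold at 24 h (7.42 to 8.56) and 11-fold at 48 h (10.3 to 11.8, edgeR adjusted p = 2.9e-44). CA9, the membrane carbonic anhydrase used as a marker of hypoxic tumour cells, was at the limit of detection at 0 h, with 3 and 9 counts, or 0.0828 and 0.253 CPM. It was found at 0.611 and 0.575 CPM at 24 h and 5.2 and 5.06 CPM at 48 h, with 337 and 250 counts. From summed counts the ratio was 3.60 at 24 h (exact 95% counting interval 1.91 to 7.39) and 31.7 at 48 h (18 to 61.7), where edgeR gave an adjusted p of 2.2e-21. Even then CA9 was the lowest of the 10 per length, at 3.32 CPM per kb.

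The opposite-strand gene ARHGEF39 covers 35.7% of the exonic bases of CA9, and whether counting used the strand is not given in the sources used here. ARHGEF39 fell by 2.16 on the log2 scale at 48 h (from 9.52 and 9.63 to 1.96 and 2.28 CPM) while CA9 rose.

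The other 3 members act in mitochondria, growth control and unknown roles. BNIP3, a mitochondrial outer membrane protein that promotes mitophagy, was measured at 53.5 and 55.6 CPM at 0 h, 187 and 198 CPM at 24 h and 254 and 242 CPM at 48 h. It was 3.54-fold higher at 24 h (3.36 to 3.73) and 4.55-fold at 48 h (4.32 to 4.79, edgeR adjusted p = 3.2e-41). NDRG1, a stress-induced growth suppressor that MYCN represses, changed most, at 2.18 and 3.10 CPM at 0 h, 44.2 and 52.5 CPM at 24 h and 176 and 192 CPM at 48 h. Its fold change of 18.3 at 24 h (16 to 21.0) became 69.6 at 48 h (62.2 to 77.9, edgeR adjusted p = 1.4e-45), and 123 genes had a larger log2 fold change. ANKRD37, a small ankyrin-repeat protein, was found at 1.93 and 1.63 CPM at 0 h, 5.33 and 5.81 CPM at 24 h and 16.6 and 16.4 CPM at 48 h. It rose 3.12-fold at 24 h (2.57 to 3.79) and 9.26-fold at 48 h (7.91 to 10.8, edgeR adjusted p = 1.8e-28). UFSP2, which covers 40.3% of the exonic bases of ANKRD37 on the opposite strand, was at 29.9 and 31.8 CPM at 0 h and 32.5 and 34.4 CPM at 48 h.

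Per length of the canonical transcript, the order of the members at 0 h was BNIP3 (35.4 CPM per kb), SLC2A1 (32.1), VEGFA (20.1), EGLN1 (14.3), EGLN3 (8.60), ANKRD37 (2.27), ADM (0.879), NDRG1 (0.872), PDK1 (0.739) and CA9 (0.109). At 48 h VEGFA led at 215 CPM per kb, and NDRG1, at 60.7, had drawn level with EGLN1, at 60.6. The 4 members that were lowest per length at 0 h, namely ADM, NDRG1, PDK1 and CA9, held 3 of the 4 largest fold changes. The place of PDK1 among them rests on its canonical transcript of 14072 bases. Without division by length it was above ANKRD37 (mean 10.4 against 1.78 CPM).

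The transcripts of the HIF pathway itself did not rise as a group. Of its 15 other genes tested, 7 were higher and 5 lower at 24 h, and 8 were higher and 5 lower at 48 h, with a median log2 fold change of 0.10 and 0.28. Of all 17734 genes tested, 27.3% were higher and 28% lower at 24 h, and 37.1% and 34.4% at 48 h. The same shares apply to each list below under GSK-J4. HIF1A, the alpha subunit of HIF-1, fell from 268 and 279.8 CPM at 0 h to 177 and 189.9 at 24 h and 82.5 and 83.8 at 48 h, a log2 change of -1.72 (SE 0.034, edgeR adjusted p = 1.3e-38). EPAS1, the alpha subunit of HIF-2, rose by 0.57 at 24 h and 0.53 at 48 h on the log2 scale (adjusted p = 2.3e-19, edgeR). The third alpha subunit, HIF3A, was at 0.276 and 0.338 CPM at 0 h, from 10 to 12 counts, and rose by 1.22 at 48 h. ARNT, the beta subunit, had a log2 change of 0.10 at 24 h (edgeR adjusted p = 0.035) and 0.05 at 48 h (0.22), and ARNT2 was 0.53 higher at 24 h. Of the negative regulators, VHL rose by 0.35 and HIF1AN by 0.56 at 48 h (0.36 and 0.39 at 24 h), and the VHL complex subunits RBX1 (-0.40 and -0.70) and TCEB2 (-0.40 and -0.69) fell at both times. The coregulators CITED2 (0.77) and CREBBP (0.69) rose at 48 h.

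Genes outside the 10 that are also known as HIF targets moved in the same direction. These lists were also chosen with earlier results of these data known, so their counts are descriptive. Of 21 enzymes and transporters of glycolysis, 21 were called higher at 24 h and 20 at 48 h, none lower, with medians of 0.98 and 1.29. The largest changes at 48 h were in PFKFB4, which sets the level of the glycolytic activator fructose 2,6-bisphosphate (log2 4.67, from 2.22 and 2.70 to 62.8 and 63.0 CPM), its relative PFKFB3 (2.76) and the glucose transporter SLC2A3 (3.43). At 24 h they were in PFKFB4 (3.67), the lactate exporter SLC16A3 (2.55, from 3 to 8 counts at 0 h) and ALDOC (2.05). The smallest were in HK1 (0.13), ENO1 (0.17) and LDHA (0.19), which had changed by 0.09, 0.29 and 0.26 at 24 h. TPI1 was the 1 gene that did not pass at 48 h (0.05). Of 28 other HIF targets, 26 were called higher at 24 h and 28 at 48 h, none lower, with medians of 1.83 and 2.50. BHLHE40, a transcriptional repressor, rose by 3.97 at 24 h and 5.22 at 48 h, and AK4, a mitochondrial adenylate kinase, by 3.68 and 4.51. ANGPTL4, an inhibitor of lipoprotein lipase, had 3 counts in each 0 h library and 422 and 509 counts at 48 h, a ratio of 100.6 (exact 95% counting interval 46.0 to 275), after a ratio of 27.3 at 24 h (12.3 to 75.2). The weakest of these 28 at 48 h were ERO1A (0.63), MXI1 (0.76) and the demethylase KDM4B (1.31), and at 24 h MXI1 (0.24), ERO1A (0.31) and CXCR4 (0.69).

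Other enzymes that use 2-oxoglutarate, outside the members and the lists of HIF targets, changed less and in both directions. Oxygenases known as HIF targets, such as P4HA2 (log2 3.20 at 48 h) and KDM4B (1.31), were placed in those lists. This contrast therefore follows in part from how the lists were split. Of 13 tested, 7 were higher and 3 lower at 24 h, and 9 were higher and 4 lower at 48 h, with medians of 0.10 and 0.29. Of all genes tested, 27.3% were higher and 28% lower at 24 h, and 37.1% and 34.4% at 48 h. The largest rise in this list was that of KDM6B, a target of the drug, at 7.42 and 8.16 CPM at 0 h, 16.1 and 16.6 at 24 h and 23.7 and 22.8 at 48 h (log2 1.58, edgeR adjusted p = 6.8e-24). KDM6A went from 38.5 and 42.2 to 42.8 and 44.8 CPM (log2 0.12, edgeR adjusted p = 0.026). ALKBH5 (0.64) and TET3 (0.60) followed at 48 h, and PLOD1 (0.53) and TET3 (0.41) at 24 h, while FTO fell by 0.75, PHYH by 0.49 and OGFOD1 by 0.33 at 48 h. At 24 h FTO (-0.36), PLOD3 (-0.21) and TET1 (-0.09) were lower.

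Transcripts of 2 further responses rose alongside. Of 14 genes of the ATF4-driven integrated stress response, which cells use when amino acids or protein folding fail, 14 were higher at both times, with medians of 2.02 at 24 h and 1.72 at 48 h. The pseudokinase TRIB3 (3.74 at 24 h), the glutathione-degrading CHAC1 (3.57) and the cystine transporter SLC7A11 (3.64 at 48 h) were among the largest, and ATF4 (0.63), SHMT2 (0.93) and PHGDH (0.32) the smallest at 48 h (0.51, 1.28 and 0.90 at 24 h). The hormone gene FGF21 had no count at 0 h and was at least 13.5-fold over 3 counts per library at 24 h and at least 6.36-fold at 48 h. Unlike the HIF targets, 12 of these 14 were lower at 48 h than at 24 h. Among 12 genes of the metal and iron response, 9 were higher and 2 lower at 24 h and 10 were higher and 1 lower at 48 h, led by metallothioneins, whose near-identical copies share reads. MT1G went from 0 and 1 counts at 0 h to 30.6 and 38.9 CPM at 24 h and 23.7 and 24.9 CPM at 48 h, a ratio of 1805 at 48 h (exact 95% counting interval 324 to 71315). MT1M, with no count at 0 h, was at least 26.6-fold over that floor at 24 h, MT1E rose by 5.90 on the log2 scale at 24 h, and MT1F by 4.94 at 48 h. The medians of both lists, 2.02 and 2.97 at 24 h and 1.72 and 3.18 at 48 h, did not move when genes without a count at 0 h were set to their bound. FTH1 rose by 0.25 at 24 h and 0.32 at 48 h, IREB2 rose by 0.25 at 48 h, and FTL was lower (-0.31 and -0.27), whereas SLC40A1 was lower at 24 h (-0.49). The part of these responses in the change of the 10 HIF targets was not tested.

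Of the 6 neuroblastoma markers, 2 were higher and 4 lower at 24 h and 1 higher and 5 lower at 48 h, and their summed level was 1055 to 1079.7 CPM at 0 h and 754 to 775 CPM at 48 h. ISL1 (-0.73 at 24 h and -1.17 at 48 h), HAND2 (-0.34 and -0.54), PHOX2A (-0.07 and -0.53) and GATA3 (-0.25 and -0.18) fell at both times. TH (0.62 and 0.14) was higher at both, and DBH was higher at 24 h (0.42) and lower at 48 h (-0.16). Of 4 tested markers of other cells, EPCAM (2.26, at 2.81 and 3.10 CPM), VIM (1.42) and FN1 (0.42) were higher at 48 h, after 0.95, 0.91 and -0.31 at 24 h, and the summed level of the 7 listed was 199 to 209.8 CPM at 0 h and 505 to 509.999 CPM at 48 h. VIM was at 170.4 and 176 CPM at 0 h and 461 and 466 CPM at 48 h. PRRX1 was at 3 counts or fewer throughout. The part of these shifts in the change of the HIF targets was not tested.

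**Figure D3:**
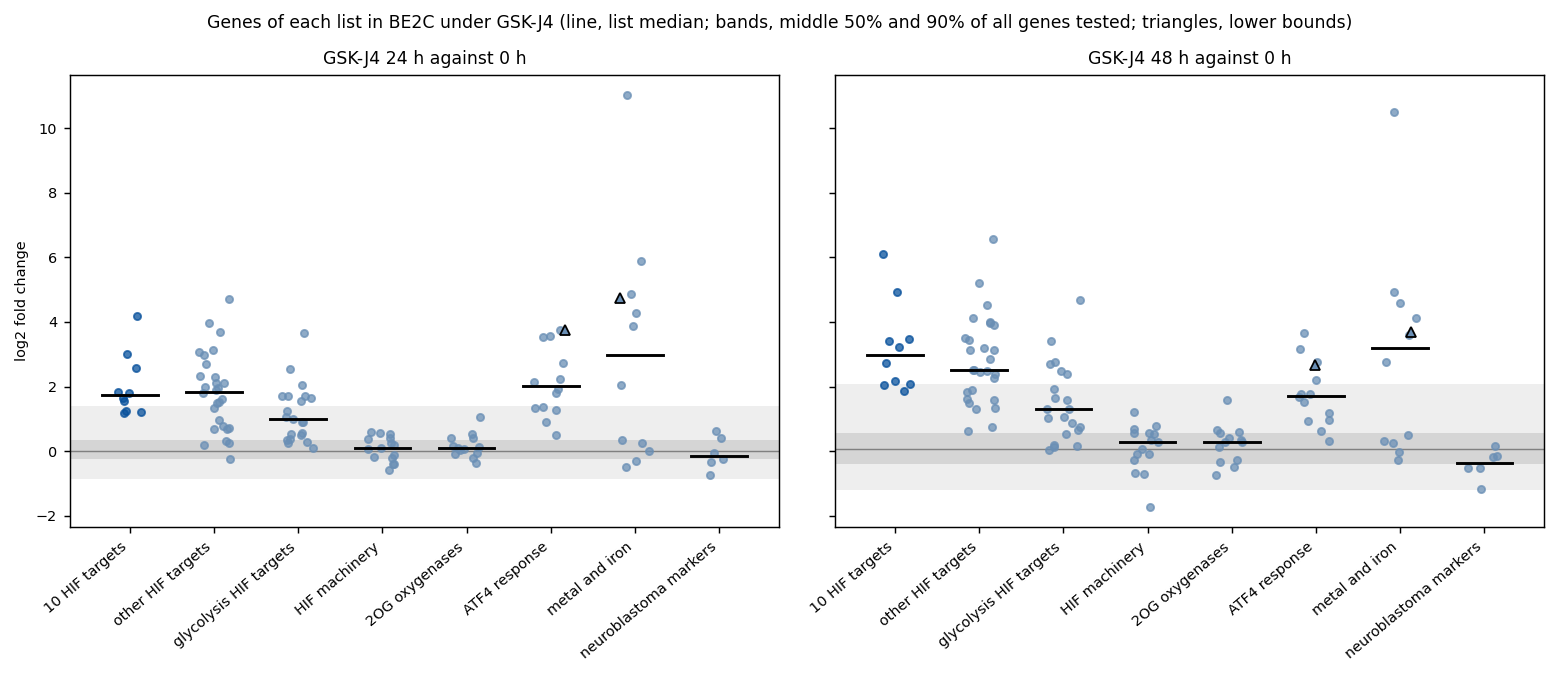
log2 fold change of each gene (points) in 8 gene lists after 24 h and 48 h of GSK-J4 in BE2C; lines are list medians, grey bands hold the middle 50% and 90% of all 17734 genes tested, and triangles are lower bounds for genes without a count at 0 h. At 48 h the medians of the 10 HIF targets (2.96), the other HIF targets (2.50) and the metal and iron list (3.18) lay above the band, whose upper edge was 2.09. Those of the HIF machinery (0.28) and of the oxygenases not listed as HIF targets (0.29) lay inside its middle. At 24 h, when the upper edge was 1.40, the median of the integrated stress response list (2.02) lay above it as well.

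The siRNA libraries answer whether the same genes move in cells labelled as depleted of KDM6B. KDM6B itself was at 6.47 and 8.76 CPM in the siCtrl libraries against 8.99, 7.11 and 8.26 CPM with N1, N2 and N33. The log2 difference was 0.09 (95% interval -0.63 to 0.81), an interval that includes a fall. Its transcript did not show the labelled depletion, and direction is drawn below from the labels alone. Protein was not measured here, whereas the study reports KDM6B knockdown by siRNA in BE2C, with immunoblots. None of the 10 HIF targets was called by edgeR between the 3 libraries labelled siKDM6B and siCtrl (0 of 10, where 0% of 17472 genes were called). DESeq2 and limma-voom also called 0 of the 10. By edgeR 3 of 10 had an unadjusted p under 0.05, as did 1615 of the 17472 genes. The median log2 difference of the 10 was -0.38, and that of all genes 0.04. The common coefficient of variation was 35%, against 2.19% in the GSK-J4 fit. The 3 siRNAs, with 1 library each, were fitted as 1 group, so this spread and the p-values include differences between siRNAs. Lack of a call here cannot tell a missing effect from disagreement between the siRNAs. The summed neuroblastoma markers were at 918 to 966 CPM in siCtrl and 447 to 806 CPM in the libraries labelled siKDM6B, and the markers of other cells at 342 to 347 CPM and 104 to 408 CPM, and their part in these values was not tested.

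VEGFA was at 109 and 110.0 CPM in the siCtrl libraries against 79.2, 77.7 and 45.4 CPM with N1, N2 and N33 (log2 -0.70, 95% interval -1.40 to -0.004, edgeR unadjusted p = 0.049, adjusted p = 0.54). ANKRD37 was at 1.54 and 1.45 CPM in the siCtrl libraries against 0.710, 0.786 and 0.643 CPM with N1, N2 and N33 (log2 -1.07, -1.91 to -0.23, edgeR adjusted p = 0.52). Both lay below the control libraries with each siRNA. EGLN1 was at 65.5 and 60.9 CPM in the siCtrl libraries against 102, 92.3 and 106 CPM with N1, N2 and N33 (log2 0.66, 0.17 to 1.16, edgeR adjusted p = 0.52), above the controls with each siRNA. These 3 genes were the ones with an unadjusted p under 0.05, and VEGFA and ANKRD37 lay in the direction opposite to that under GSK-J4.

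BNIP3 and CA9 were also below siCtrl in all 3 libraries, without an unadjusted p under 0.05. How many of all genes tested lay wholly on 1 side of siCtrl was not counted. This therefore sets neither BNIP3 and CA9 nor VEGFA, ANKRD37 and EGLN1 apart. BNIP3 was at 77.3 and 72.9 CPM in the siCtrl libraries against 67.4, 21.8 and 60.2 CPM with N1, N2 and N33 (log2 -0.59, -1.70 to 0.51), with N2 far below the other 4 libraries. CA9 was at 0.473 and 0.427 CPM in the siCtrl libraries against 0.142, 0.0982 and 0.386 CPM with N1, N2 and N33, which rests on 5 to 20 counts per library. Of the remaining 5 genes, NDRG1, SLC2A1, EGLN3 and PDK1 had libraries on both sides of the controls, and ADM lay between the controls or below them. NDRG1, the member that rose most under GSK-J4, was at 1.69 and 1.99 CPM in the siCtrl libraries against 6.22, 1.24 and 2.66 CPM with N1, N2 and N33, above the controls with N1 and N33 and below them with N2. SLC2A1 was at 43.6 and 47.2 CPM in the siCtrl libraries against 46.6, 56.9 and 12.5 CPM with N1, N2 and N33, low with N33. EGLN3 was at 41.9 and 38.8 CPM in the siCtrl libraries against 65.6, 35.2 and 12.1 CPM with N1, N2 and N33, again lowest with N33. N33 stood apart in ADM as well, but not always in the same direction. ADM was at 0.647 and 1.13 CPM in the siCtrl libraries against 0.899, 0.668 and 0.279 CPM with N1, N2 and N33, and PDK1 at 5.47 and 4.89 CPM in the siCtrl libraries against 4.47, 2.65 and 8.60 CPM with N1, N2 and N33, lowest with N2 and highest with N33. The 95% intervals of the log2 difference reached 2.50 for NDRG1 (from -0.76) and 1.25 for PDK1 (from -1.22), and the changes after 48 h of GSK-J4 were 6.12 and 3.46.

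The difference between the GSK-J4 change at 48 h and the siRNA difference was tested in 1 fit over all 11 BE2C libraries. It was called, with the GSK-J4 change higher, for 8 of 10 members, where 5.12% of 18720 genes were called (2.74% higher and 2.38% lower). The log2 difference was largest for CA9 (6.01, 95% interval 4.21 to 7.80, edgeR adjusted p = 0.0056) and NDRG1 (5.25, 3.49 to 7.01, adjusted p = 0.0078). It was 4.26 for ANKRD37 (3.63 to 4.90), 4.11 for VEGFA (3.38 to 4.84), 3.44 for PDK1 (2.19 to 4.69), 3.25 for ADM (1.84 to 4.65), 2.77 for BNIP3 (1.53 to 4.0) and 1.41 for EGLN1 (1.01 to 1.80). EGLN3 (2.15, 0.45 to 3.84, edgeR adjusted p = 0.14) and SLC2A1 (2.09, 0.53 to 3.66, edgeR adjusted p = 0.12) did not pass. Of the list of other HIF targets 17 of 28 were called higher in this test and of the glycolysis list 13 of 21, with none lower. The fit carried a coefficient of variation of 24.8%, which again includes differences between the siRNAs. The count of 8 fell to 4 without either 0 h library or siCtrl replicate 2, fell to 5 without either 48 h library or siCtrl replicate 1, and rose to 10 without N33.

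**Figure D4:**
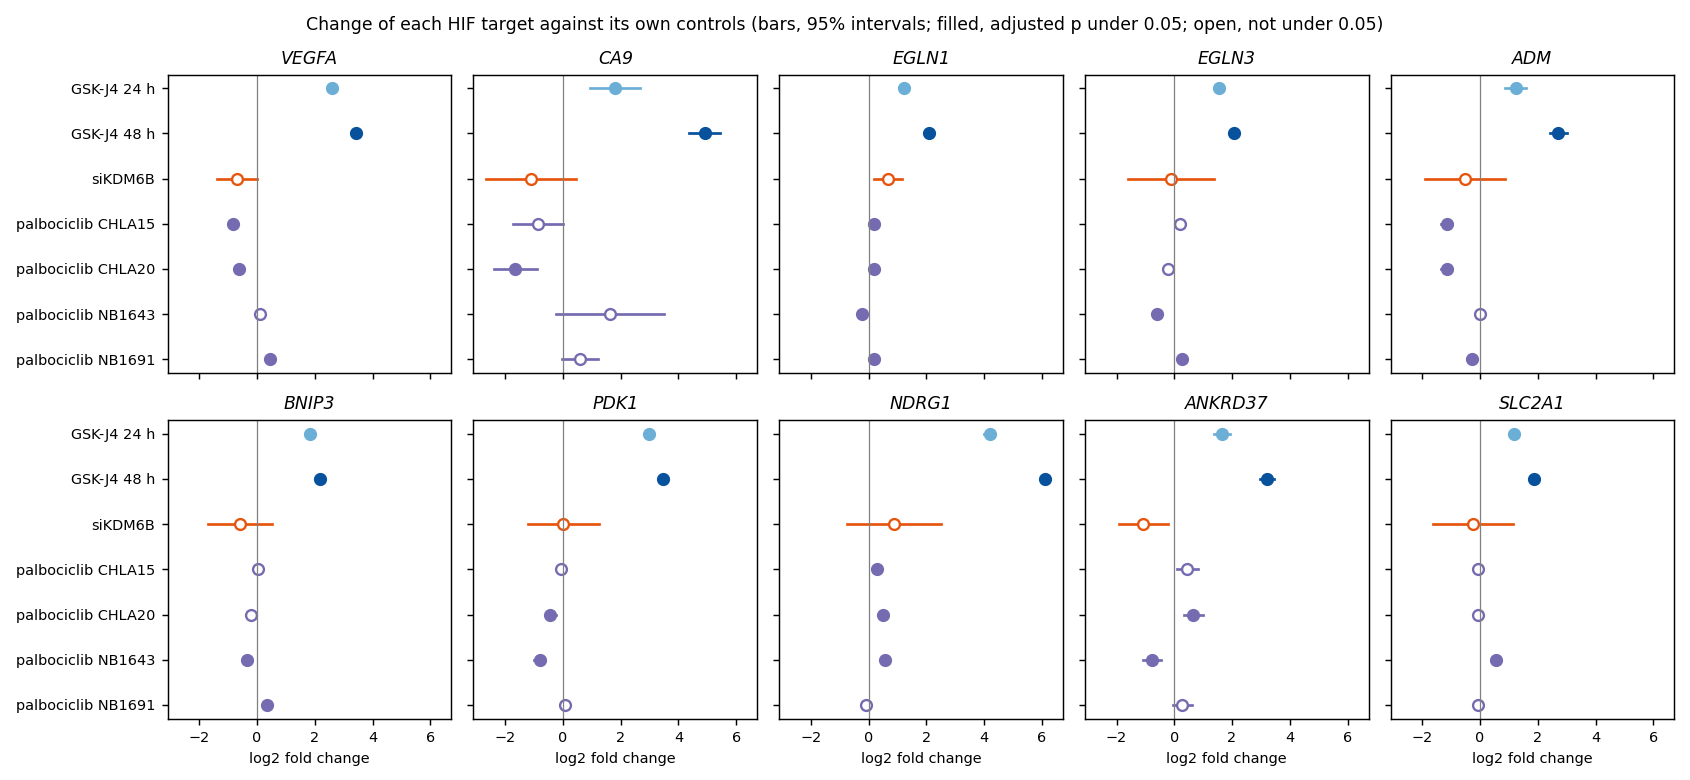
log2 fold change of each HIF target (horizontal axes) against the controls of its own experiment, with 95% intervals as bars; filled points had an edgeR adjusted p under 0.05. All 10 lay between 1.18 and 6.12 under GSK-J4, none was called between siKDM6B and siCtrl, and under palbociclib the changes lay within -1.64 to 1.64 and differed in direction between lines.

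The 4 other lines give the level of the 10 genes in untreated cells and under a drug that is not aimed at oxygenases. Per length, BNIP3 led in all 4 untreated lines, at 36.5 to 68.4 CPM per kb, SLC2A1 was next (16.4 to 36.4), and CA9 was lowest (0.0132 to 0.548). NDRG1 was at 8.52 to 18.5 CPM per kb in these lines, beside 0.872 in BE2C at 0 h and 60.7 after 48 h of GSK-J4. PDK1 was likewise at 2.78 to 4.42 beside 0.739 in BE2C at 0 h. The tables of the 2 experiments were counted on different gene lists and were not tested against each other.

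Between untreated lines, CHLA20 and CHLA15 were close, with 4 of 10 members called, all higher in CHLA20, where 12.4% of 22133 genes were called (6.29% higher and 6.07% lower). NB1643 had 8 members higher and 1 lower than CHLA15 (64.6% of genes called, 30.2% higher and 34.4% lower) and than CHLA20 (64.5%, 30.1% and 34.3%). NB1691 had 9 higher than CHLA15 (78%, 42.3% higher and 35.7% lower), and 7 higher and 1 lower than CHLA20 (77.5%, 42.4% and 35.1%). Against NB1643, NB1691 had 5 higher and 3 lower (80.7%, 44.6% and 36.1%). The share of genes called between lines was therefore high outside the CHLA pair. The hydroxylases and SLC2A1 were lowest in the CHLA lines and, with TMM scaling, highest in NB1691. The median log2 difference of all genes between NB1691 and NB1643 was 0.13 with TMM, -0.05 with upper quartile scaling and -0.28 with library totals. Small steps between these 2 lines therefore depend on the scaling. EGLN3 was at 4.96 and 4.37 CPM in CHLA15, 5.52 and 5.41 CPM in CHLA20, 10.3 and 10.6 CPM in NB1643 and 14.8 and 14.6 CPM in NB1691. The 2 CHLA lines did not differ beyond the test (edgeR adjusted p = 0.11), while NB1691 exceeded NB1643 by 0.49 on the log2 scale. EGLN1 was at 24.2 and 23.0 CPM in CHLA15, 23.7 and 19.9 CPM in CHLA20, 42.7 and 40.5 CPM in NB1643 and 59.7 and 63.3 CPM in NB1691, with the CHLA lines again not differing (edgeR adjusted p = 0.36). SLC2A1 was at 57.3 and 54.1 CPM in CHLA15, 65.0 and 72.5 CPM in CHLA20, 105 and 102 CPM in NB1643 and 122 and 125 CPM in NB1691. All 6 pairs of lines differed in SLC2A1 by the test with TMM scaling.

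The secreted signals were lower in the CHLA lines. ADM was at 6.12 and 6.09 CPM in CHLA15, 6.73 and 6.84 CPM in CHLA20, 14.8 and 14.6 CPM in NB1643 and 14.9 and 14.9 CPM in NB1691. No difference in ADM passed between the CHLA lines or between the NB lines. VEGFA was at 42.5 and 42.2 CPM in CHLA15, 56.0 and 45.1 CPM in CHLA20, 57 and 57.9 CPM in NB1643 and 65.4 and 62.3 CPM in NB1691. The step between NB1643 and NB1691 in VEGFA did not pass (edgeR adjusted p = 0.059). NDRG1 was higher in NB1691 than in the other 3 lines, at 26.7 and 25.7 CPM in CHLA15, 30.2 and 24.8 CPM in CHLA20, 26.2 and 25.3 CPM in NB1643 and 55.2 and 56.9 CPM in NB1691, and no difference passed among those 3.

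NB1643 had the highest levels of 3 members. BNIP3 was at 60.4 and 52.1 CPM in CHLA15, 71.4 and 60.5 CPM in CHLA20, 96.2 and 115 CPM in NB1643 and 69.7 and 70.3 CPM in NB1691. PDK1 was at 44 and 37.7 CPM in CHLA15, 55.0 and 43.8 CPM in CHLA20, 60.2 and 64.4 CPM in NB1643 and 39.6 and 38.8 CPM in NB1691. ANKRD37 was at 1.57 and 1.22 CPM in CHLA15, 1.61 and 1.94 CPM in CHLA20, 3.97 and 4.28 CPM in NB1643 and 2.22 and 2.34 CPM in NB1691. In each of these 3 genes NB1643 was above every other line by the test. CA9 went the other way in NB1643, with 3 and 0 counts, and was at 0.343 and 0.400 CPM in CHLA15, 1.07 and 0.627 CPM in CHLA20, 0.0409 and 0 CPM in NB1643 and 0.752 and 0.688 CPM in NB1691. Against NB1643, CA9 had a ratio of 15.2 in CHLA15 (exact 95% counting interval 4.92 to 76.4), 35.9 in CHLA20 (11.9 to 177) and 22.4 in NB1691 (7.44 to 110.4).

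**Figure D5:**
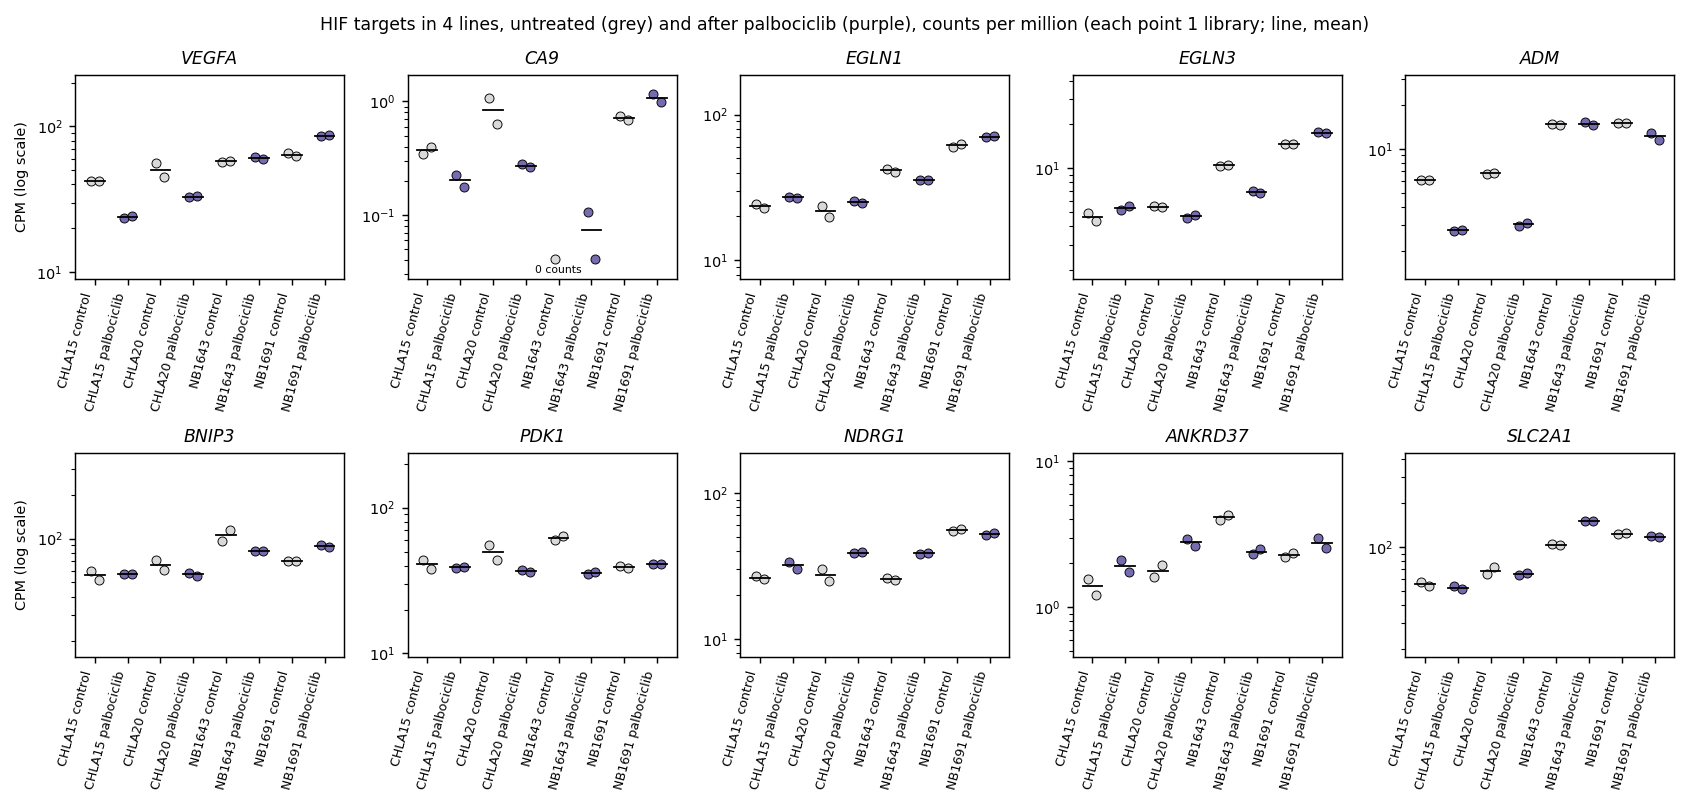
Level of each HIF target in untreated and palbociclib-treated CHLA15, CHLA20, NB1643 and NB1691 cells (vertical axes, CPM on a log scale); each point is 1 library and each line the mean of 2. ADM and VEGFA were lower with palbociclib in the 2 CHLA lines, and 1 untreated NB1643 library had no CA9 count.

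Palbociclib moved the 10 genes in no common direction. In CHLA15 2 members were called higher and 2 lower, where 29.8% of 22133 genes were called (14.2% higher and 15.6% lower). In CHLA20 3 were higher and 4 lower (29.6% of genes, 13.7% and 15.9%). In NB1643 2 were higher and 5 lower (39.9%, 20.3% and 19.7%), and in NB1691 4 were higher and 1 lower (32.8%, 17.4% and 15.5%). The median log2 change of the 10 was -0.02, -0.22, -0.11 and 0.23. The effect differed between lines for 10 of 10 members by the interaction test, as it did for 38% of all genes, and for 7 of 10 with NB1691 left out, an alternative chosen after its markers were seen, in which BNIP3, CA9 and NDRG1 did not pass and 23.2% of 20053 genes did. In that fit 3, 6 and 7 members were called in CHLA15, CHLA20 and NB1643, where 29.7%, 29.6% and 41.5% of genes were. The change exceeded 0.5 on the log2 scale in 2 of the 4 calls in CHLA15, 5 of the 7 in CHLA20, 5 of the 7 in NB1643 and none of the 5 in NB1691.

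ADM fell in CHLA15 from 6.12 and 6.09 to 2.74 and 2.77 CPM (fold 0.451, 95% interval 0.395 to 0.516) and in CHLA20 from 6.73 and 6.84 to 2.95 and 3.12 CPM (0.447, 0.393 to 0.510). In NB1643 it was at 14.8 and 14.6 CPM untreated and 15.1 and 14.5 CPM treated, and in NB1691 it fell from 14.9 and 14.9 to 12.9 and 11.5 CPM. VEGFA fell in CHLA15 to 23.6 and 24.3 CPM (fold 0.566, 0.507 to 0.632) and in CHLA20 to 32.9 and 33.2 CPM (0.653, 0.586 to 0.727). In NB1691 VEGFA rose to 86.4 and 86.7 CPM (1.36, 1.22 to 1.5), and NB1643 was at 62.1 and 60.05 CPM with an interval of 0.957 to 1.18. The alpha subunit EPAS1 moved in the same directions where VEGFA was called, by -1.30 in CHLA15, -1.07 in CHLA20 and 1.22 in NB1691 on the log2 scale, and fell by 0.48 in NB1643. HIF1A changed by 0.17, 0.21, -0.17 and -0.21 in CHLA15, CHLA20, NB1643 and NB1691, each called by edgeR.

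PDK1 fell in NB1643 from 60.2 and 64.4 to 34.9 and 36.4 CPM (fold 0.572, 0.505 to 0.648) and in CHLA20 to 37.3 and 36.2 CPM (0.742, 0.656 to 0.841), and did not pass in the other 2 lines, where treated libraries were at 38.7 and 39.3 and at 41.4 and 41.3 CPM. NDRG1 rose in CHLA15 to 33.8 and 30.1 CPM, in CHLA20 to 38.7 and 39.3 CPM and in NB1643 to 38.3 and 38.9 CPM, with folds of 1.22, 1.42 and 1.5. In NB1691 NDRG1 was at 51.8 and 53.0 CPM (fold interval 0.840 to 1.04). No other member but EGLN1 rose in 3 lines. SLC2A1 was called in NB1643 alone, where it rose to 151 and 149.8 CPM (1.45-fold, 1.34 to 1.57). ANKRD37 rose in CHLA20 to 2.95 and 2.62 CPM (1.58-fold) and fell in NB1643 to 2.32 and 2.50 CPM (0.584-fold). EGLN3 fell in NB1643 to 6.98 and 6.76 CPM (0.658-fold) and rose in NB1691 to 17.6 and 17.6 CPM (1.2-fold). EGLN3 and ANKRD37 thus moved in opposite directions between lines. EGLN1 changed by log2 0.20, 0.20, -0.22 and 0.20 in the 4 lines, with edgeR adjusted p of 0.04, 0.045, 0.014 and 0.026. With NB1691 left out, EGLN1 was no longer called in CHLA15 (edgeR adjusted p = 0.0649) or CHLA20 (0.0759). BNIP3 fell in NB1643 to 81.7 and 81.8 CPM and rose in NB1691 to 90.1 and 88.2 CPM. CA9 fell in CHLA20, from 1.07 and 0.627 to 0.281 and 0.265 CPM, or 69 and 34 to 18 and 17 counts. In NB1643 it had 3 and 0 counts untreated and 7 and 2 treated, a ratio of 3.24 (exact 95% counting interval 0.808 to 18.6).

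In the same lines the glycolysis list had 3 members higher and 5 lower in CHLA15, 1 higher and 15 lower in CHLA20, 5 and 8 in NB1643 and 1 and 8 in NB1691, out of 21. The other HIF targets had 3 higher and 11 lower, 4 and 12, 2 and 10, and 14 and 3, out of 27 tested. The integrated stress response list fell in CHLA15 and CHLA20, with 13 of 14 genes lower and none higher in each, and had 2 higher and 7 lower in NB1643 and 7 higher and 1 lower in NB1691.

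Over all 27 libraries, with each experiment or line centred on its own mean, the 45 pairs of members had Pearson correlations of 0.43 to 0.91 (median 0.74), highest for EGLN1 with NDRG1 and lowest for PDK1 with SLC2A1. These values are descriptive, as libraries of a group share their treatment and each pair rests on the same libraries. Among 16067 genes, the non-members most like NDRG1 were ZNF654 (0.97) and TNFRSF10B (0.96). Those most like PDK1 were FAM162A (0.97), itself listed among HIF targets in hypoxia, and P4HA2 (0.96), a collagen prolyl hydroxylase. Those most like CA9 were ZNF469 (0.93) and TRANK1 (0.91). After 48 h of GSK-J4 these 6 genes had log2 fold changes of 2.10, 3.25, 2.50, 3.20, 3.48 and 3.15 in the same order. They were picked over libraries that include those of GSK-J4, so a rise there follows from the choice. In the siKDM6B comparison none of them was called, where 0% of 17472 genes were.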

How the data were processed

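Total RNA of 27 libraries was read as paired ends. Per the submitters' processing notes and the study's methods, the authors aligned reads to GRCh37-lite with STAR 2.5.3a and deposited raw counts per gene symbol from htseq-count. The strand setting is not given in the sources used here, and the annotation named there is a mouse release although the symbols are human. Summary entries were left out of library sizes (no feature 5.1% to 16.8% of pairs, ambiguous 2.14% to 3.46%, not unique 4.0% to 6.74%).

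The paired files of each BE2C library differed from each other by a chi-square per degree of freedom of 1.48 to 1.65 and were summed. N1, N2 and N33 carry 1 replicate number each and were taken as 1 library each. Groups came from the sample labels.

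The test was edgeR's quasi-likelihood test (version 4.0.16, R 4.3.3) on these counts, after filterByExpr and TMM scaling, with Benjamini-Hochberg adjustment over all genes tested and a threshold of 0.05, in fits over the 6 GSK-J4, 5 siRNA, 11 BE2C and 16 palbociclib libraries. The study's own tests used voom and limma, which were run here as an alternative. CPM used TMM-scaled totals. Levels between genes were divided by the canonical transcript length of GENCODE on GRCh37, and exact 95% counting intervals and the floor of 3 counts cover counting error only. Sequences came from RefSeq (GRCh38.p14). The fits were checked on simulated counts. Alternatives were DESeq2 1.42.0, limma-voom (limma 3.58.1), other scalings, no filter or at least 10 counts in every library, a minimum log2 change of 0.5, each file as a sample, the compared groups alone, the replicate block, each library left out and NB1691 left out, the last chosen after seeing the data. When a library is left out, the remaining one of its group is assumed to vary like the other groups.

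All 10 members are described. Of every other list, the 3 largest and 3 smallest changes among genes that passed at 24 h or 48 h of GSK-J4 are named, with HIF1A, EPAS1, ARNT, VHL, EGLN2, HIF1AN, KDM6A and KDM6B always named, and for the 3 members with the largest change at 48 h the 2 most similar genes (Pearson r of log2 CPM, prior count 2). TPI1 and the overlapping genes were named after their values were seen. The members and lists were chosen with earlier results of these data known. Some genes of the neuroblastoma marker list are not reported here, and its counts and sums leave them out.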

Additional observations from a re-analysis of the deposited data

Results flagged for a closer look

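The change after 48 h of GSK-J4 differed from the difference between the libraries labelled siKDM6B and siCtrl for 8 of the 10 HIF targets, by a test of that difference over the 11 BE2C libraries (edgeR). On the log2 scale the difference was 4.11 for VEGFA, 6.01 for CA9, 1.41 for EGLN1, 3.25 for ADM, 2.77 for BNIP3, 3.44 for PDK1, 5.25 for NDRG1 and 4.26 for ANKRD37. GSK-J4 and siRNA differ in duration (48 h and 72 h) and in their controls. The KDM6B transcript did not show a fall with the siRNAs, and KDM6B protein was not measured in these data.

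The effect of palbociclib differed between the 4 lines for all 10 by the interaction test in edgeR, with adjusted p of 3.7e-08 for VEGFA, 0.0023 for CA9, 0.0031 for EGLN1, 1.6e-05 for EGLN3, 1.4e-07 for ADM, 0.00044 for BNIP3, 4.8e-05 for PDK1, 0.00019 for NDRG1, 0.00017 for ANKRD37 and 6.7e-06 for SLC2A1, where 38% of all genes passed. The dose was 300 nM in 2 lines and 3 µM in the other 2, so dose and line cannot be told apart.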

How the results depend on the processing

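The count of 10 of 10 HIF targets higher under GSK-J4 held at 24 h and 48 h under every alternative run, except that CA9 was not tested with at least 10 counts required in every library (9 of 9 higher). Where 151 counts of members called stayed within 1.5 times their value, 15 did not. Treating each file as a sample gave 3 members between siKDM6B and siCtrl (1 higher and 2 lower of 9 tested), and leaving out each library in turn gave 4 to 10 for the difference between GSK-J4 and siRNA, 2 to 4 in CHLA15 and 2 to 4 in NB1691. A minimum log2 change of 0.5 left 2 in CHLA15 and 0 in NB1691, and fitting NB1691 alone gave 8. In CHLA15 the count of 2 came without control replicate 2 or palbociclib replicate 1, and in NB1691 without palbociclib replicate 2.

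Of the values of single members under an alternative, 1470 kept their direction and side of the threshold, 23 passed newly, 71 no longer passed and 14 changed sign. None of the 14 had passed the test. For siKDM6B these were EGLN3 (-0.77 to 0.32 over the libraries left out), SLC2A1 (-0.61 to 0.19) and PDK1 (-0.54 to 0.34), each changing sign without N33, and PDK1 under limma-voom (-0.15), without a filter (-0.018) and without siCtrl replicate 2 (-0.074). In CHLA15 they were BNIP3 with library totals (-0.0080) and without control replicate 2 (-0.075 to 0.13 over the libraries left out), and PDK1 without control replicate 1 (-0.17 to 0.043). In NB1643 they were ADM with library totals (-0.017), with NB1691 left out (-0.018), and without control replicate 2 or palbociclib replicate 1 (-0.022 to 0.045 over the libraries left out). In NB1691 it was PDK1 with library totals (-0.0067). The cause was not tested.

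Across all genes, the siKDM6B comparison called 0 by edgeR and limma-voom (1615 at an unadjusted p under 0.05), 157 by DESeq2, 84 without a filter and 2354 with each file as a sample. Upper quartile scaling moved the median log2 change of all genes at 48 h of GSK-J4 from 0.0546 to 0.1645, and no filter to 0.2027.

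The replicate block left 10 of 10 members at 24 h and 48 h of GSK-J4 and 4, 7, 7 and 5 in the 4 palbociclib comparisons. Replicates share only a number: deviations of same-numbered libraries correlated at 0.0701, 0.0379 and 0.032 between GSK-J4 times and at 0.1, 0.188, 0.193 and -0.0147 within lines. No paired analysis was possible for the siRNA comparison because the siRNAs carry 1 replicate each.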
